A study of Mus musculus with 18 samples.

Results

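Acute-phase genes were examined in dorsal spinal tissue (L3–5) of mice with an inflamed hindpaw. The 10 genes were Lrg1, Lcn2, Lbp, Hp, Saa3, Serpina3n, Cp, Steap4, Itih4 and Socs3, and each had 1 row in each of the 3 tables, among 34193 loci that could be matched between the tables. Lrg1, Lcn2 and Lbp were selected on their higher values after complete Freund's adjuvant (CFA) with every vector. The other 7 genes were added as further acute-phase genes, to ask whether they behaved in the same way. The C57BL/6 mice were 3 months old and had all undergone spinal injection of a recombinant adeno-associated virus (rAAV) into the dorsal horn. The virus carried LacZ as the control, wild-type histone deacetylase 4 (HDAC4 wt), or HDAC4 3SA, a mutant that is retained in the nucleus. Saline or CFA, an oil emulsion with killed mycobacteria that causes a local inflammation, was injected into the hindpaw 24 h before the tissue was taken. Each of the 6 groups held 3 mice, 18 in all, and no group without rAAV was analysed here. Expression was given as FPKM (fragments mapped to a locus, divided by its exon length and by all mapped fragments), with 1 value per group and none per mouse. No SD or interval can therefore be given and no test was run here. The depth of each library is not given in the tables, a lower limit being all that the study states, and every difference is that of 2 group values. Hdac4 itself had 7.41 and 7.72 FPKM after saline and CFA with LacZ, 10.1 and 10.8 with HDAC4 wt, and 8.86 and 8.81 with HDAC4 3SA.

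The acute-phase response is the change in plasma protein synthesis that follows tissue injury or infection. It is best known from the liver, where interleukin-6 acts through gp130, JAK kinases and STAT3, and interleukin-1 and tumour necrosis factor act through NF-kB, with C/EBP factors at many of the same promoters. Several of its genes are also expressed outside the liver. In the central nervous system Lcn2 and Serpina3n are known as genes of reactive astrocytes, and neutrophil granules contain the products of Lcn2 and Hp.

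The promoter windows of 5 genes are shown, as examples with matches to each of these motifs and, in Lrg1, with none. RefSeq windows (GRCm38.p6, 250 bases before to 50 after the annotated start, written 5′ to 3′ on the gene's strand) were found for 8 of the 10 genes, with 9 windows because Cp has a pair of starts. Lbp and Hp had no window in the set of promoters used here. Capitals mark matches on either strand to TTCNNNGAA (the STAT motif), TTGCNNAA (a C/EBP motif) or the NF-kB consensus. Lrg1 lies at chr17:56121897-56122196 (minus strand), Lcn2 at chr2:32387690-32387989 (minus), Saa3 at chr7:46715627-46715926 (minus), Socs3 at chr11:117969317-117969616 (minus) and Steap4 at chr5:7960222-7960521 (plus).
Lrg1: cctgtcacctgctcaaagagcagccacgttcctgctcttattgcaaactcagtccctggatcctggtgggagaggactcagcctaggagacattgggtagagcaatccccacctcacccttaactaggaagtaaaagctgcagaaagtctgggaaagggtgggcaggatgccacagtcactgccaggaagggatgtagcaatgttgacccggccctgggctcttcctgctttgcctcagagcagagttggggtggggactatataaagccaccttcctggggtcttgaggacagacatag
Lcn2: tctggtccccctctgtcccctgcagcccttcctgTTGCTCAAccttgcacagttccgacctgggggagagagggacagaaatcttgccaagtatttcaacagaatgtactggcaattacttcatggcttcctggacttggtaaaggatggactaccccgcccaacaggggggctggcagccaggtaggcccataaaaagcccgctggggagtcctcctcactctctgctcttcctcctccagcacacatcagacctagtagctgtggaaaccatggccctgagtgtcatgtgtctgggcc
Saa3: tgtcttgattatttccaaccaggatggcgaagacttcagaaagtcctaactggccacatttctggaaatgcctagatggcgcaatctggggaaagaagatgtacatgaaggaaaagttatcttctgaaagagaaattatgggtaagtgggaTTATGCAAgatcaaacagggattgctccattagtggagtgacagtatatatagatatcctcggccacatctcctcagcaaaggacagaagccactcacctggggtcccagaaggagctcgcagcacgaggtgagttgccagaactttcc
Socs3: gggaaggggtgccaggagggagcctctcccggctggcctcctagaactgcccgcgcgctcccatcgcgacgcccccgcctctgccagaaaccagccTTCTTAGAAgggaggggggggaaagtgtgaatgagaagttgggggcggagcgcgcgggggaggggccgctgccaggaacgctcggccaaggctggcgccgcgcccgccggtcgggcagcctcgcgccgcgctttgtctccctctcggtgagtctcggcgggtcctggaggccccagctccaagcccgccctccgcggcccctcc
Steap4: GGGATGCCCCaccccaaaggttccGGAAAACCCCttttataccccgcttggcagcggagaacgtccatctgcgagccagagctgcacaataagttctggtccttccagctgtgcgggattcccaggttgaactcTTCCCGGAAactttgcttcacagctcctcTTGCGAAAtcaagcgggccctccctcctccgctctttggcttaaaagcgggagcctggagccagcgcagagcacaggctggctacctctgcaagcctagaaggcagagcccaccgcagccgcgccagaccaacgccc

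The STAT motif was found in 3 of the 8 genes, namely Steap4, Itih4 and Socs3, whose matches begin at −116, −51 and −154 relative to the start. Of all 32851 promoter windows of this length, 8.30% hold it. The C/EBP motif was found in 4 genes, with its first base at −216 in Lcn2, −99 in Saa3, −87 in Steap4 and −70 in the second window of Cp, and is held by 10.8% of all windows. The NF-kB consensus occurred only in Steap4, at −250 and −226, against 8.46% of all windows with at least 1 match. Lrg1 and Serpina3n held none of these letters, which describes these windows only.

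Lrg1, Lcn2 and Lbp are the genes that the CFA comparison itself picked out, so their ratios are a description. Lrg1 encodes a secreted leucine-rich glycoprotein that acts on TGF-β signalling in vessels. It had 1.20 FPKM after saline and 5.40 after CFA with LacZ, 1.72 and 6.99 with HDAC4 wt, and 2.42 and 6.93 with HDAC4 3SA. All 3 CFA groups lay above all 3 saline groups, with ratios of 4.49, 4.07 and 2.87. Lcn2, lipocalin 2, binds iron-carrying siderophores. Its values were 1.70 FPKM after saline and 14.3 after CFA with LacZ, 3.40 and 10.7 with HDAC4 wt, and 5.12 and 15.9 with HDAC4 3SA. The CFA values again exceeded every saline value, but the ratio was 8.39 with LacZ and 3.15 and 3.10 with the others. The smaller ratios went with higher saline values, while the difference between CFA and saline was 12.6, 7.33 and 10.8 FPKM. Lbp encodes the lipopolysaccharide-binding protein, which hands lipopolysaccharide to CD14. Its values were 1.19 and 2.66 FPKM with LacZ, 1.99 and 4.22 with HDAC4 wt, and 1.68 and 3.64 with HDAC4 3SA. Lbp had the most even ratios of these genes, at 2.24, 2.12 and 2.17. The level rests on a locus of 383 bases (chr2:158332464-158332846, plus strand) that overlaps 1 of 15 exons, 7.93% of the exon bases and no coding base of the gene, so its FPKM describes the 3′ end of the transcript.

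The locus of Itih4 was also incomplete. Itih4 was read from chr14:30896583-30901651, which holds 7 of the 22 exons of its main transcript and 29.3% of its coding bases. The loci of Lrg1 (chr17:56119507-56121963), Hp (chr8:109575132-109579075), Saa3 (chr7:46711995-46715692), Serpina3n (chr12:104406596-104414368), Cp (chr3:19957058-20035376), Steap4 (chr5:7960440-7982213) and Socs3 (chr11:117966089-117969824) hold all coding bases. That of Lcn2 (chr2:32384634-32387864) overlaps all 6 exons of its main transcript and holds 75.1% of the coding bases annotated over all its transcripts. The Cp locus ends at 20035376, past the annotated gene end at 20009145, so its FPKM may include fragments from outside the gene. Serpina3n and Saa3 belong to families of similar genes, and how reads shared by such copies were divided is not known here.

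**Figure D1:**
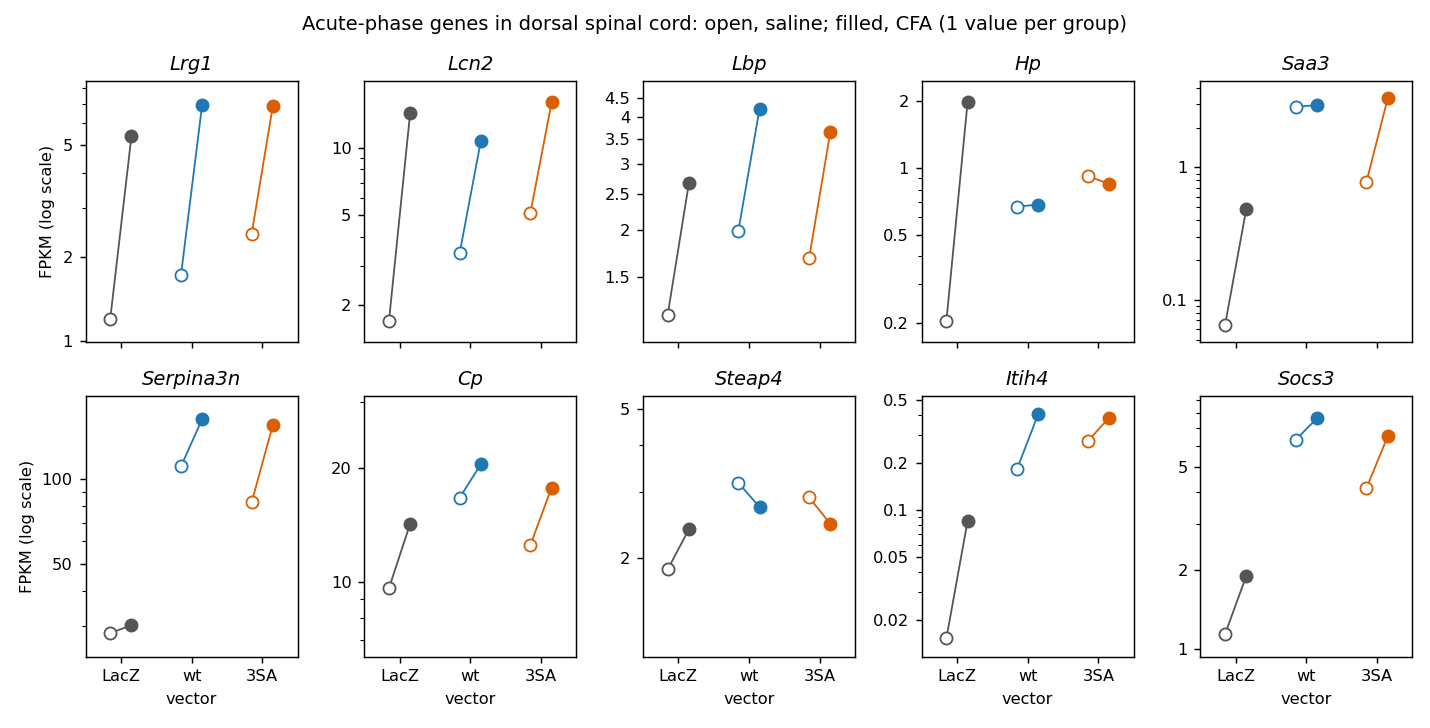
FPKM (log scale) of each acute-phase gene in LacZ, HDAC4 wt and HDAC4 3SA mice; open circles are saline groups, filled circles CFA groups, and each point is 1 group value without an error. In Lrg1, Lcn2 and Lbp all CFA points lie above all saline points, Hp has such a step with LacZ only, and the LacZ saline point is the lowest for every gene.

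Of the 7 added genes, none was past the threshold with every vector. The threshold was a log2 ratio of CFA over saline beyond 0.5 in either direction (1.41-fold), with 0.1 FPKM added to both values. Above it were 5 of the 7 with LacZ, 2 with HDAC4 wt and 4 with HDAC4 3SA, and which genes these were differed between vectors. With Lrg1, Lcn2 and Lbp the counts were 8, 5 and 7 of 10. Among the 21830 loci with a mean of at least 0.5 FPKM over the 6 groups, 5.92% were past the threshold upwards with LacZ, 10.6% with HDAC4 wt and 10.7% with HDAC4 3SA. No acute-phase gene was past it downwards, against 4.49%, 6.70% and 5.85% of loci. With all 3 vectors 152 loci (0.696%) were past it upwards, and Lrg1, Lcn2 and Lbp were among them by the way they were chosen. The median log2 ratio of the 10 genes was 0.90, 0.43 and 0.78, beside 0.00, 0.01 and 0.01 over all these loci. Without Lrg1, Lcn2 and Lbp, which were chosen on these ratios, the median of the 7 added genes was 0.68, 0.27 and 0.50. Because the genes were put together with results of these data known, the counts are read as a description. Of the 10 genes, 9 reached the mean of 0.5 FPKM and Itih4 did not.

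**Figure D2:**
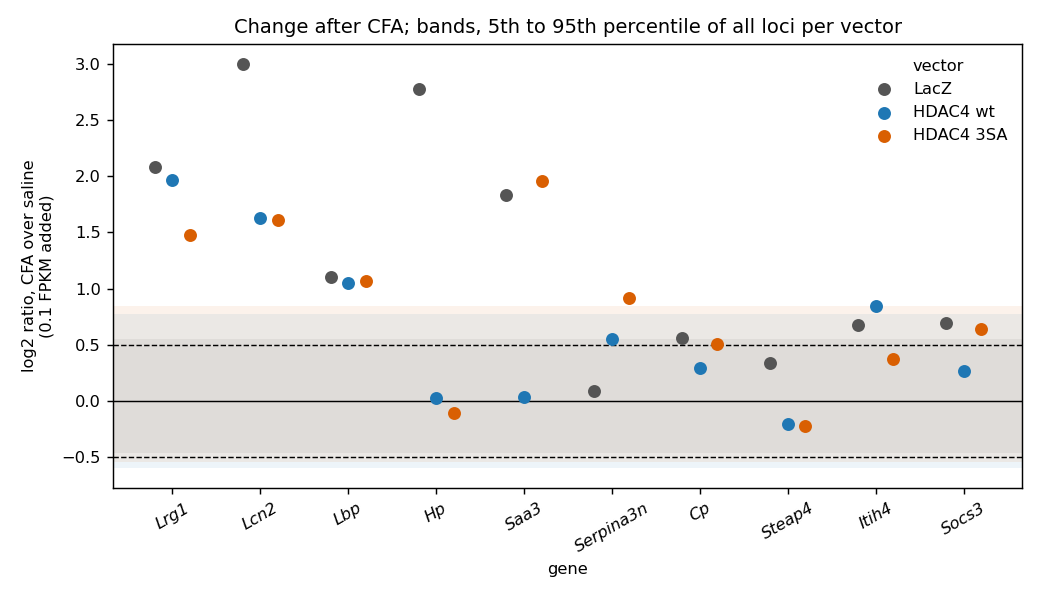
Log2 ratio of CFA over saline (0.1 FPKM added) for each gene, with 1 point per vector; dashed lines mark a log2 ratio of 0.5 in either direction and the shaded bands run from the 5th to the 95th percentile of all 21830 loci with each vector. Lrg1, Lcn2 and Lbp lie above every band with all vectors, Hp at 2.77 with LacZ only and Saa3 near 0 with HDAC4 wt only.

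Hp and Saa3 differed most between vectors. Hp encodes haptoglobin, which binds free haemoglobin. It had 0.204 FPKM after saline and 1.98 after CFA with LacZ, a ratio of 9.69. With HDAC4 wt the values were 0.670 and 0.685, and with HDAC4 3SA 0.921 and 0.849. The LacZ CFA group was thus the only high one, and the ratios with the HDAC4 vectors were 1.02 and 0.922. Saa3 encodes serum amyloid A3, a form made largely outside the liver. It had 0.0648 FPKM after saline and 0.486 after CFA with LacZ and 0.781 and 3.32 with HDAC4 3SA, giving ratios of 7.50 and 4.25. With HDAC4 wt it had 2.88 and 2.96 FPKM, a ratio of 1.03. Its HDAC4 wt saline value was already close to the highest CFA value, and both LacZ values lay below all others.

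Serpina3n and Socs3 were high with both HDAC4 vectors irrespective of CFA. Serpina3n encodes a secreted inhibitor of serine proteases and was the most abundant of these genes. Its values were 28.3 FPKM after saline and 30.3 after CFA with LacZ, 111 and 163 with HDAC4 wt, and 82.7 and 156 with HDAC4 3SA. The log2 ratios of 0.10, 0.56 and 0.91 were past the threshold with both HDAC4 vectors and not with LacZ. Socs3, the feedback inhibitor of gp130 and STAT3 signalling, had 1.14 and 1.91 FPKM with LacZ, 6.34 and 7.65 with HDAC4 wt, and 4.13 and 6.52 with HDAC4 3SA. Both LacZ values lay below every value of the HDAC4 groups. Its log2 ratios were 0.69, 0.27 and 0.64.

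Of the genes of metal handling and the remaining plasma protein, Cp was higher after CFA with every vector, Steap4 differed little and Itih4 was rare. Cp encodes ceruloplasmin, the copper-containing ferroxidase. It had 9.62 and 14.3 FPKM with LacZ, 16.7 and 20.5 with HDAC4 wt, and 12.5 and 17.8 with HDAC4 3SA. Every CFA value exceeded its own saline value, by log2 ratios of 0.56, 0.29 and 0.50, the last just beyond the threshold. Steap4, a metalloreductase of iron and copper, was at 1.87 and 2.39 FPKM with LacZ, 3.17 and 2.74 with HDAC4 wt, and 2.90 and 2.47 with HDAC4 3SA. It was the only gene below the threshold with every vector, and its log2 ratio was above 0 with LacZ (0.34) and below 0 with the others (−0.21 and −0.22). Itih4, a heavy chain of the inter-alpha-trypsin inhibitor family, had 0.0152 and 0.0848 FPKM with LacZ, 0.183 and 0.408 with HDAC4 wt, and 0.274 and 0.386 with HDAC4 3SA. All of its values were under the 0.5 FPKM used for the background, so its log2 ratios of 0.68, 0.85 and 0.38 rest on very low levels. With 1 FPKM added in place of 0.1, 5 values dropped under the threshold: Saa3 (0.48), Socs3 (0.44) and Itih4 (0.10) with LacZ, Itih4 (0.25) with HDAC4 wt and Cp (0.48) with HDAC4 3SA.

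Saline levels of the 10 acute-phase genes were higher with both HDAC4 vectors than with LacZ. All 10 genes had their lowest value in the LacZ saline group, as did 25.3% of the 21830 loci. Against LacZ saline, 9 of 10 were past the threshold upwards in HDAC4 wt saline mice, with Lrg1 at a log2 ratio of 0.48 as the exception, against 16.8% of loci. In HDAC4 3SA saline mice 8 of 10 were past it, with Lbp (0.47) and Cp (0.38) as the exceptions, against 14.3% of loci. The median log2 ratios of the 10 genes were 1.13 and 1.54, and those of all loci 0.04 and 0.04. Lrg1, Lcn2 and Lbp were chosen for saline values below CFA values, so their lowest value had to be that of a saline group. Of the 7 added genes alone, 7 were lowest in LacZ saline, and 7 and 6 were past the threshold, with medians of 1.34 and 1.70. Both comparisons share the LacZ saline group. The vectors were also normalized in separate runs, so vector and run cannot be told apart and the levels are given as a description.

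On the log2 scale with 0.1 FPKM added, Saa3 had the largest excess over LacZ saline of the 10 genes with both vectors (4.18 and 2.42), followed by Socs3 (2.38 and 1.77). Saa3 was 44.4 times the LacZ saline value with HDAC4 wt and 12.1 times with HDAC4 3SA, from a base of 0.0648 FPKM. As a plain ratio with HDAC4 3SA, Itih4 exceeded it at 18.0 times, from 0.0152 FPKM. Socs3 was 5.56 and 3.62 times and Serpina3n 3.92 and 2.92 times the LacZ value. For Hp, Lcn2, Lrg1 and Itih4 the ratio was larger with HDAC4 3SA than with HDAC4 wt. On the same log2 scale, the values with HDAC4 wt and HDAC4 3SA were 1.34 and 1.75 for Hp, 0.96 and 1.53 for Lcn2, 0.48 and 0.95 for Lrg1, and 1.29 and 1.70 for Itih4. The reverse order held for Lbp (0.70 and 0.47), Cp (0.79 and 0.38) and Steap4 (0.73 and 0.61). After CFA the medians against LacZ CFA were lower, at a log2 ratio of 0.58 and 0.40, and Hp lay below its LacZ value by log2 ratios of −1.41 and −1.13.

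**Figure D3:**
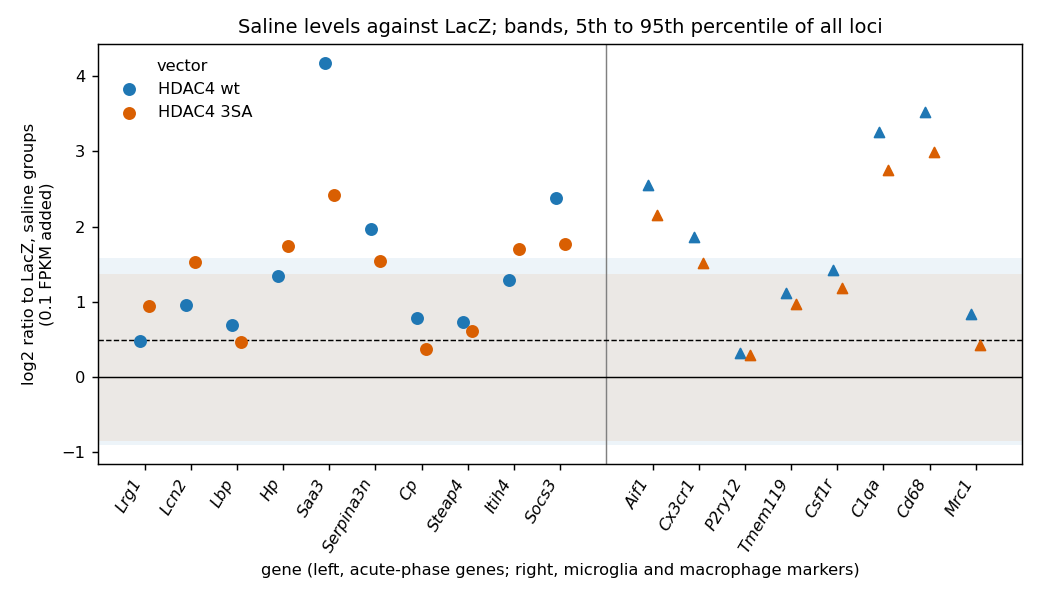
Log2 ratio of the saline value with each HDAC4 vector to that with LacZ (0.1 FPKM added), for the acute-phase genes (circles) and for microglia and macrophage markers (triangles); bands run from the 5th to the 95th percentile of all 21830 loci. Every point lies above 0, from 0.38 (Cp, HDAC4 3SA) to 4.18 (Saa3, HDAC4 wt) among the acute-phase genes.

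Marker genes of other cell types moved with some of these values. Their summed FPKM is given beside them, with counts above LacZ saline to be read against 16.8% and 14.3% of all loci, and in bulk tissue fewer cells of a type and less RNA per cell cannot be told apart. Summed over 8 microglia and macrophage markers, saline levels were 97.9 FPKM with LacZ, 565 with HDAC4 wt and 418 with HDAC4 3SA, and 7 and 6 of the 8 were past the threshold above LacZ saline. C1qa, a complement gene of microglia, had 37.5, 360 and 254 FPKM in these groups, and Csf1r, the receptor for colony-stimulating factor 1, had 23.1, 62.3 and 52.9. The astrocyte gene Gfap had 389, 807 and 805 FPKM and Aqp4, the astrocytic water channel, 129, 196 and 181. Of the 8 astrocyte markers 2 and 1 were past the threshold above LacZ saline with HDAC4 wt and HDAC4 3SA (medians 0.12 and 0.12), which is near the shares of all loci, and Gja1, Slc1a2, Slc1a3 and S100b were below their LacZ value with both. Summed saline levels of the 7 neutrophil markers with at least 0.5 FPKM were 14.2 FPKM with LacZ, 43.6 with HDAC4 wt and 64.5 with HDAC4 3SA, 6 of the 7 past the threshold with each HDAC4 vector. For 2 red blood cell markers the sums were 141, 187 and 347 FPKM, with 0 and 2 past it. Summed over 8 spinal neuron markers the levels were 1775, 1277 and 1337 FPKM, the highest with LacZ, of which Snap25 made up 1227, 795 and 861. The median log2 ratios of these markers to LacZ saline were −0.23 and −0.25. Syt1 and Tac1 were above LacZ with HDAC4 wt, and Rbfox3 with HDAC4 3SA. The 7 leptomeningeal fibroblast markers with at least 0.5 FPKM summed to 145, 218 and 185 FPKM, and 4 and 2 of them were past the threshold above LacZ saline (medians 0.51 and 0.33). The part of these cells in the saline levels of the acute-phase genes was not tested. After CFA, 0, 0 and 5 of the 8 microglia and macrophage markers (Aif1, Cx3cr1, Csf1r, C1qa and Cd68) were past the threshold upwards with LacZ, HDAC4 wt and HDAC4 3SA, and 0 of 8 astrocyte markers with any vector.

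Neutrophil markers stood beside Hp. Of 12 markers listed, 11 were matched and 7 reached 0.5 FPKM. With LacZ 6 of the 7 were past the threshold upwards after CFA, with a median log2 ratio of 2.98 and a sum of 14.2 FPKM after saline and 117 after CFA. With HDAC4 wt 4 were past it downwards, namely Ngp, Camp, Ltf and Retnlg (median −0.66, sums 43.6 and 31.1), and with HDAC4 3SA 6 were (median −0.88, sums 64.5 and 40.7). S100a8 had 3.54 and 36.8 FPKM with LacZ, 12.6 and 10.7 with HDAC4 wt, and 20.6 and 13.4 with HDAC4 3SA. S100a9, its partner in calprotectin, had 4.96 and 52.8, 19.2 and 13.8, and 27.0 and 18.4 FPKM. Hp thus had its only high ratio with the vector where these markers were high after CFA. Lrg1, Lcn2 and Lbp were chosen for higher values with every vector, so their ratios say nothing on this point. The part of neutrophils in the values of Hp and Lcn2 was not tested.

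**Figure D4:**
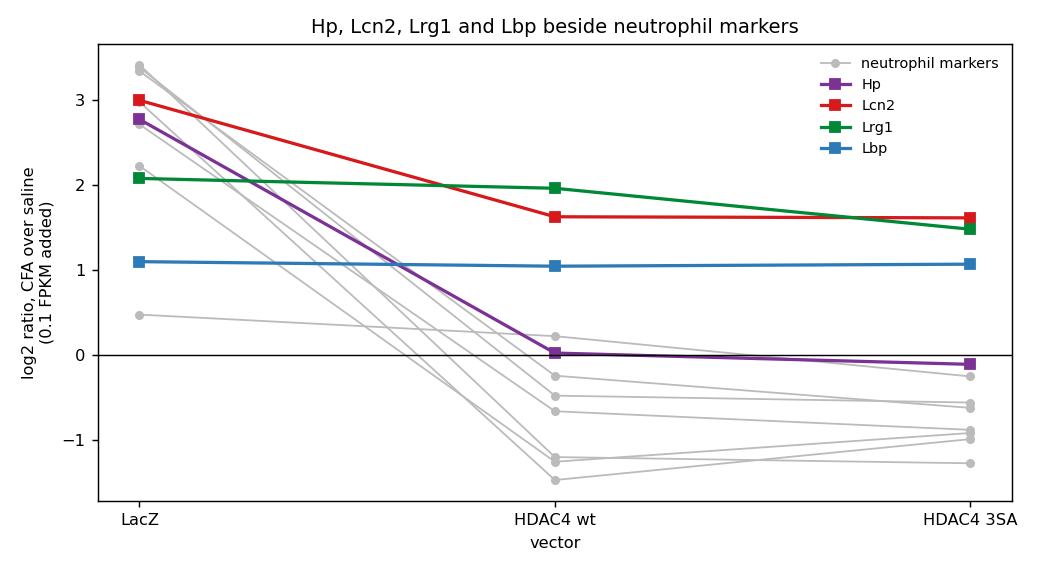
Log2 ratio of CFA over saline (0.1 FPKM added) with each vector for Hp, Lcn2, Lrg1 and Lbp (squares) and for the 7 neutrophil markers with a mean of at least 0.5 FPKM (grey). Most markers go from above 2 with LacZ to below 0 with both HDAC4 vectors, Hp goes from 2.77 to 0.03 and −0.11, and Lbp stays between 1.05 and 1.10.

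The other cell type markers were read for CFA against saline, beside 5.92%, 10.6% and 10.7% of all loci past the threshold upwards and 4.49%, 6.70% and 5.85% downwards, and genes given here and in the following lists only by name were picked after their values were seen. Red blood cell markers, of which 2 of 5 were matched, were past the threshold upwards with LacZ only, with Hbb-bs at 137 and 252 FPKM and Alas2 at 4.43 and 7.76. Of 5 Schwann cell markers 4 were past it upwards with LacZ and 4 downwards with HDAC4 3SA. Pmp22, a gene of peripheral myelin, had 241 and 364 FPKM with LacZ, 244 and 254 with HDAC4 wt, and 336 and 233 with HDAC4 3SA. The part of blood and peripheral nerve in the acute-phase values was not tested. Of 7 leptomeningeal fibroblast markers at 0.5 FPKM or more, 2 (Col1a1 and Lum) were past it upwards with LacZ and none with the other vectors, with Dcn at 69.1 and 89.6 FPKM and Igfbp2 at 24.3 and 31.7 with LacZ. Of 8 endothelial markers Ly6c1 was past it, upwards with HDAC4 3SA, a share near that of all loci, and Cldn5, a tight junction gene, had 23.9 to 32.4 FPKM and Ly6c1 15.1 to 31.9 over the groups. None of 6 pericyte markers was past it, with Vtn at 49.6 to 74.7 FPKM and Rgs5 at 26.8 to 36.0.

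Neuronal and glial markers of spinal tissue were abundant in all groups. Snap25, a synaptic vesicle fusion gene, had 646 to 1227 FPKM over the groups and Gad1, of inhibitory neurons, 64.0 to 104, and of 8 spinal neuron markers 1, Gad1, was past the threshold, downwards with HDAC4 3SA. The oligodendrocyte genes Mobp and Cnp had 834 to 1177 and 242 to 316 FPKM, and neither was past the threshold with any vector. Of 8 hepatocyte markers 3 were matched and 2 reached 0.5 FPKM. Apoa2 had 1.60 to 2.57 FPKM and Apoh 0.484 to 0.827, the first past the threshold downwards and the other upwards with HDAC4 wt, and neither with the other vectors. Albumin (Alb) was not matched and not analysed here.

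A wider list of other acute-phase genes was read against the shares of all loci given above (5.92%, 10.6% and 10.7% upwards). Of its 42 genes 22 were matched and 17 reached 0.5 FPKM. Upwards were 5 with LacZ, 5 with HDAC4 wt and 8 with HDAC4 3SA, downwards 0, 2 and 0, and the medians were log2 ratios of 0.19, 0.30 and 0.48. With LacZ the genes were Itih2, Serpina3f, Il1rn, Ttr and Rbp4, and those with HDAC4 wt included Mt1, Mt2, Il1rn and C3, with Ttr and Apoa1 downwards. In saline mice 10 and 8 of the 17 were past the threshold above LacZ with HDAC4 wt and HDAC4 3SA. Of all loci 16.8% and 14.3% were, and the medians of the list were log2 ratios of 0.78 and 0.23. After CFA, no gene of this list with a mean of 1 FPKM or more was past the threshold with all vectors. The metallothioneins Mt1 and Mt2, which bind zinc and copper, were its most abundant genes. Mt1 had 252 and 318 FPKM with LacZ, 406 and 581 with HDAC4 wt, and 363 and 575 with HDAC4 3SA. Mt2 had 89.7 and 106, 155 and 226, and 138 and 222. Both were above 0 with every vector, with log2 ratios from 0.24 to 0.68, and past the threshold with the HDAC4 vectors only.

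The signalling upstream of these genes was represented by a pair of lists, again read against 5.92%, 10.6% and 10.7% of all loci upwards. For the IL-6 family and STAT3, 23 of 26 genes were matched and 21 reached 0.5 FPKM, of which 4 were past the threshold upwards with LacZ, 1 with HDAC4 wt and 5 with HDAC4 3SA, and none downwards. The count with HDAC4 wt is below the share of all loci past it upwards (10.6%). The medians were log2 ratios of 0.13, 0.12 and 0.25. Osmr, Bcl3 and Cebpb were past it with LacZ and HDAC4 3SA, and Lif with HDAC4 3SA. Cebpd, a C/EBP factor of the acute-phase response, was the only one past it with every vector, with 2.04 and 3.84 FPKM with LacZ, 6.38 and 10.3 with HDAC4 wt, and 6.05 and 11.3 with HDAC4 3SA. Its log2 ratios of 0.88, 0.68 and 0.89 were close to each other, and its saline levels with both HDAC4 vectors exceeded the LacZ CFA level. The most abundant genes of the list, the kinase Jak1 and the receptor subunit Cntfr, were nearly level, with 49.5 to 54.6 and 43.6 to 51.1 FPKM over the 6 groups. Il6 itself was not matched and not analysed here. For IL-1, TNF and NF-kB, 22 of 22 were matched and 21 reached 0.5 FPKM, with 3, 1 and 8 past the threshold upwards, none downwards, the count with HDAC4 wt again below the share of all loci, and medians of 0.14, 0.22 and 0.46. Those with LacZ were Il1b, Il1r1 and Icam1, and the one with HDAC4 wt was Il1r2. Tnfrsf1a, the main receptor for tumour necrosis factor, had 9.32 and 10.7 FPKM with LacZ, 28.6 and 38.6 with HDAC4 wt, and 23.6 and 54.6 with HDAC4 3SA. Il1rap, the shared chain of the interleukin-1 receptor, had 23.7 to 30.3 FPKM over the groups.

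Receptors and partners of the acute-phase proteins were mostly level with LacZ and HDAC4 wt. Of 14 genes, 12 reached 0.5 FPKM, and 0, 0 and 7 were past the threshold upwards with LacZ, HDAC4 wt and HDAC4 3SA, none downwards, with medians of 0.20, 0.24 and 0.61, beside the same 5.92%, 10.6% and 10.7% of all loci upwards. Slc22a17, a receptor for lipocalin 2, was abundant at 214 to 267 FPKM and its log2 ratios were 0.15, −0.08 and −0.08. Tgfbr1, a TGF-β receptor, had 7.05 and 6.58 FPKM with LacZ, 18.9 and 23.0 with HDAC4 wt, and 15.5 and 24.3 with HDAC4 3SA. In iron, haem and copper handling, 17 of 18 genes were matched and 16 reached 0.5 FPKM, with 1, 0 and 3 past the threshold upwards and 0, 1 and 1 downwards, and medians of 0.00, 0.12 and 0.10. The single genes are near the shares of all loci, 5.92% upwards with LacZ and 6.70% and 5.85% downwards with HDAC4 wt and HDAC4 3SA. These single genes are no result about the list. The 0 and 3 genes upwards with HDAC4 wt and HDAC4 3SA stand beside 10.6% and 10.7% of all loci, as a description only. The gene past the threshold upwards with LacZ and downwards with the others was Ltf, lactoferrin, which is also on the neutrophil list. Those upwards with HDAC4 3SA were Ftl1, Hmox1 and Steap3. The ferritin heavy chain Fth1 had log2 ratios of 0.09, 0.21 and 0.23. The light chain Ftl1 had 112 and 138 FPKM with LacZ, 328 and 364 with HDAC4 wt, and 254 and 455 with HDAC4 3SA.

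Among 14242 gene names with a mean of at least 1 FPKM, the pattern most like that of Lrg1 was sought by Euclidean distance over the 3 log2 ratios. The nearest were Bcl2a1c (distance 0.49), Scgb3a1 (0.57), Lcn2 (0.99), Gm42910 (0.99) and Sprr1a (1.04). Bcl2a1c, of the Bcl2 family, had log2 ratios of 1.78, 1.85 and 1.11 with LacZ, HDAC4 wt and HDAC4 3SA. Scgb3a1, a secretoglobin, had 2.12, 1.85 and 2.04, and Sprr1a, known from injured sensory neurons, 2.59, 1.08 and 1.26. Of the other acute-phase genes Lbp ranked 14th, Saa3 78th, Socs3 277th, Cp 407th, Serpina3n 454th and Steap4 8427th, and Hp and Itih4 were under 1 FPKM. The distance uses the ratios on which Lrg1, Lcn2 and Lbp were selected, so the near ranks of Lcn2 and Lbp follow in part from that choice. It rests on 3 values, and 3 of the 5 nearest were retained with a minimum of 5 FPKM or with 1 FPKM added. Lcn2 was among them with the minimum of 5 FPKM but not with 1 FPKM added.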

How the data were processed

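Bulk mRNA of dorsal spinal tissue was sequenced from 18 mice in 6 groups of 3. The authors made strand-specific poly(A) libraries, mapped the reads to GRCm38 with TopHat 2.0.14 and Bowtie 2.2.9, and estimated levels with Cufflinks and Cuffdiff 2.0.0. They deposited 1 table per vector with 34579 loci and, for each locus, 1 FPKM value for the saline and 1 for the CFA group, pooled over the mice. The tables also hold the authors' comparison (log2 fold change, test statistic, p-value, q-value and status), which was not used. Counts and depth per mouse were not analysed here, so an FPKM value has no known precision.

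Loci were matched between tables by identifier and overlapping place, and 386 were left out. Ratios of CFA over saline were computed with Python 3.11.15, numpy 2.4.6 and pandas 2.3.3, on the log2 scale after adding 0.1 FPKM, which understates ratios of low genes. The code was tested on simulated data. With 1 value per group no test was run, and a log2 ratio beyond 0.5 served as threshold. The background was all loci with a mean of at least 0.5 FPKM. Exons were taken from GENCODE M21 (GRCm38), and promoters from RefSeq.

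The members and the 16 gene lists (5 of related genes, 11 of cell type markers) were chosen with earlier results of these data known. Genes named from a list were its 2 most abundant and those with a mean of at least 1 FPKM past the threshold in the same direction with all vectors. Alternatives were 0.01 or 1 FPKM added, a log2 threshold of 1, centring on loci above 5 FPKM, summed rows of a name and a minimum level. The alternatives for the saline comparison were chosen after seeing the data. Single results of some list genes are not reported here.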

Additional observations from a re-analysis of the deposited data

How the results depend on the processing

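With 1 FPKM added, 5 of the acute-phase genes were past the threshold with LacZ in place of 8. A log2 threshold of 1 left 5 with LacZ, 3 with HDAC4 wt and 4 with HDAC4 3SA. Against LacZ saline it left 5 in HDAC4 wt saline and 6 in HDAC4 3SA saline, in place of 9 and 8. With 1 FPKM added the counts against LacZ saline were 6 and 6. The alternatives for the saline comparison were chosen after seeing the data. With 0.01 FPKM added the median log2 ratio with LacZ was 1.53 in place of 0.90. With 1 FPKM added the medians were 0.50, 0.27 and 0.67 with LacZ, HDAC4 wt and HDAC4 3SA, in place of 0.90, 0.43 and 0.78, and without Itih4, whose mean is under 0.5 FPKM, they were 1.10, 0.29 and 0.91. Of the 30 single ratios (10 genes, 3 vectors), 1 FPKM added took 5 below the threshold and moved 2 others, Hp with LacZ to 1.31 and Saa3 with HDAC4 3SA to 1.28. With 0.01 FPKM added 2 moved, Saa3 (2.73) and Itih4 (1.91) with LacZ. No ratio past the threshold changed sign, and centring on loci above 5 FPKM or adding up the rows of a name moved 0 of 30. No paired analysis was possible because the tables hold 1 value per group and none per mouse, and for the same reason no mouse could be left out in turn. Depth per library is not given in the tables, and the lowest levels were those of Itih4 and of Hp and Saa3 after saline with LacZ.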

Other observations

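Other genes of the lists, named here after their values were seen, had levels of interest beside the acute-phase genes. The complement gene C3 had 8.29 FPKM after saline and 8.77 after CFA with LacZ, 34.0 and 52.1 with HDAC4 wt, and 22.1 and 41.1 with HDAC4 3SA, an order of groups like that of Serpina3n. Osmr, the oncostatin M receptor, had 1.07 and 1.63 FPKM with LacZ, 4.61 and 6.26 with HDAC4 wt, and 3.80 and 7.24 with HDAC4 3SA. Bcl3, a partner of NF-kB, had 0.534 and 1.15, 3.72 and 5.05, and 2.86 and 5.68 FPKM. In each of these genes both LacZ values lay below all values with the HDAC4 vectors. Rbp4, the plasma retinol carrier, whose synthesis is known to decrease in the acute phase, had 5.68 and 11.2 FPKM with LacZ but 10.2 and 10.6 with HDAC4 wt and 6.66 and 6.78 with HDAC4 3SA, so that its ratio was past the threshold with LacZ only. These are single group values without a test.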
